A study of Mus musculus with 2 samples.

Results

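The 10 tendon lineage genes described here are Scx, Mkx, Tnmd, Thbs2, Thbs4, Fmod, Kera, C1qtnf3, Chodl and Postn. They were taken by symbol from the 32285 genes of the count matrix. No rule on measured values chose them, but earlier results of these data were known when they were chosen. Tendon joins muscle to bone, and its cells arise in the embryo from mesenchyme that switches on the transcription factor Scx. Scx-positive progenitors then turn on Mkx, another transcription factor, and the membrane protein Tnmd, a marker of maturing tendon cells. They fill the tissue with collagen fibrils, whose assembly is tuned by small proteoglycans such as Fmod and Kera and by matricellular proteins such as Thbs2, Thbs4 and Postn.

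The data were single-cell transcriptomes of tdTomato-positive cells from the trunks and limbs of E14 mouse embryos, which had been decapitated and eviscerated. All embryos carried Myf5-Cre, a recombinase driven by the Myf5 promoter of early muscle precursors, and the Rosa26-LSL-tdT reporter that Cre switches on. The mutant genotype has both Srsf2 alleles floxed (SRSF2f/f/Myf5-Cre/tdT) and the littermate controls have 1 floxed and 1 wild-type allele (SRSF2f/w/Myf5-Cre/tdT), so that deletion was limited to cells with a history of Myf5-Cre. Each genotype was 1 library of 10x Genomics 3′ counts, and the labels give no number of pooled embryos. There was therefore no replicate check of any difference and no test was made, and every interval below is an exact 95% interval that covers counting error only. All shares of cells are shares inside the tdTomato gate.

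The genotype labels went against the data. Srsf2, the deleted gene, was lower in the library labelled SRSF2f/w than in the library labelled SRSF2f/f, with a log2 ratio of -0.52 (-0.55 to -0.49) over all kept cells. The ratio was below 0 in each of the 10 cell types described, with an interval that spanned 0 in pericytes. The run summaries name the library labelled SRSF2f/f as WT and that labelled SRSF2f/w as KO, and the headings of the study's quality control give the same opposite reading. The count of retained cells in the study was larger for the mutant than for the control, which is the order the labels give here. The study also describes a far smaller share of muscle cells in the mutant. Here muscle cells were 1.05% of kept cells in the library labelled SRSF2f/w and 17.8% in the other, which is the order the run summaries give. Libraries are therefore named by their labels throughout, and each ratio is labelled SRSF2f/w over labelled SRSF2f/f, that is, mutant over control under the run summaries and the reverse under the labels. Srsf2 reads come from 3′ ends, and since the study's scheme draws the lox sites around the gene without naming exons, this level does not count the cells that lost the gene.

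The library labelled SRSF2f/f had 15268 barcodes and 156093779 unique molecular identifiers (UMIs), and that labelled SRSF2f/w had 12498 barcodes and 128116615 UMIs. After the quality limits 12523 and 10345 cells were kept, with medians of 10751 and 9480 UMIs. The 2 libraries shared 74 barcode sequences, which were kept as separate cells. Cell types were set by UMI limits on markers, none of them a tendon gene, and a fibroblast was a cell with at least 5 UMIs of Col3a1, the collagen of loose connective tissue, that passed no other limit. There were 4799 fibroblasts in the library labelled SRSF2f/f (38.3% of kept cells) and 2890 in that labelled SRSF2f/w (27.9%). Muscle cells numbered 2226 and 109, cartilage cells 1740 and 1579, and endothelial cells 341 and 837. Cells that passed several limits were set aside as mixed (4.44% and 6.61%), and 10.6% and 19.5% passed none.

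The genes lie on separate chromosomes except Scx and C1qtnf3. In GRCm38 coordinates Scx (ENSMUSG00000034161) is on chromosome 15 at 76457452 to 76459458, inside Bop1, which runs on the opposite strand, and Cell Ranger counts reads of a gene's own strand. C1qtnf3 (ENSMUSG00000058914), which encodes a secreted C1q and TNF related protein, is on the same chromosome at 10952332 to 10980150. Tnmd (ENSMUSG00000031250) is on chromosome X at 133850980 to 133865577, and Thbs4 (ENSMUSG00000021702) on chromosome 13 at 92751590 to 92794818. Chodl (ENSMUSG00000022860), the gene of the membrane lectin chondrolectin, is on chromosome 16 at 78930948 to 78951733. Of the other members only Mkx overlaps another annotated gene, AC148004.2 on its own strand, which is not among the counted genes. All 10 members are annotated as protein coding.

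The 250 bases before the start of Tnmd, C1qtnf3, Thbs4 and Chodl are shown because Tnmd, C1qtnf3 and Thbs4 were the members with levels most like those of Scx over single cells, and Chodl was the member that differed most by stage in muscle. Scx is a basic helix-loop-helix factor, a family known to bind the E-box CANNTG. Capitals mark each CANNTG, which reads the same on both strands. The sequences are from RefSeq on GRCm38.p6, written in the direction of the gene: Tnmd at chrX:133850758-133851007 (plus strand), C1qtnf3 at chr15:10952082-10952331 (plus strand), Thbs4 at chr13:92794819-92795068 (minus strand) and Chodl at chr16:78930698-78930947 (plus strand). The Tnmd start is that of RefSeq, so the last 28 bases of its window lie inside the gene as GENCODE gives it.
Tnmd: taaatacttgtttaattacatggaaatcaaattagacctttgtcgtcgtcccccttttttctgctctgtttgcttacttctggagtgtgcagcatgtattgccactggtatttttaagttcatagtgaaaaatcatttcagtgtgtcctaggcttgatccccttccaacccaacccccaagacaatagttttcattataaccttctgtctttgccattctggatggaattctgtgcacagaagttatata
C1qtnf3: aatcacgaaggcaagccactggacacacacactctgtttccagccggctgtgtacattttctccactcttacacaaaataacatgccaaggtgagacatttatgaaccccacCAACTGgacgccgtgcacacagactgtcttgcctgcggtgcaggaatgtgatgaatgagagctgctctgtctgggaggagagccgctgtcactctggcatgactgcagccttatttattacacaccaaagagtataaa
Thbs4: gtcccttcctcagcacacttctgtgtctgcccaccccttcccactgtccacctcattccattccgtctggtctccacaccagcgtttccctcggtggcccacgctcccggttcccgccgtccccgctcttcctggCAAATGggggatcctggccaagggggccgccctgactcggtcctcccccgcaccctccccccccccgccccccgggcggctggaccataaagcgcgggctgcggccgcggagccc
Chodl: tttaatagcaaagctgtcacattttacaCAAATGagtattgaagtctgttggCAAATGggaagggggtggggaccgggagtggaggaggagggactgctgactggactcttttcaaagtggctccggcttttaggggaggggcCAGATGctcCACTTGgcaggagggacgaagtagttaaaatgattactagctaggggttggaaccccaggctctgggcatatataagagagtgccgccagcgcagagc
The table matched 8 of the 10 members (Scx and Mkx had no entry). Chodl held 4 matches, a number that 3.84% of the 32851 promoter windows of this length reached. C1qtnf3, Thbs4, Thbs2 and Fmod held 1 each, 66.2% of all windows held at least 1, and Tnmd, Kera and Postn held none, where the Kera window lies wholly inside the GENCODE gene. A match is a run of letters and not a bound site.

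Scx, Tnmd, Thbs4 and Kera had their highest level in fibroblasts in both libraries. Levels are UMIs summed over the cells of a type divided by all UMIs in those cells and given as CPM. Scx stood at 36.7 CPM (35.1 to 38.5) in fibroblasts of the library labelled SRSF2f/f and 26.1 CPM (24.3 to 28.1) in those of the library labelled SRSF2f/w. Tnmd stood at 99.1 CPM (96.3 to 102) and 104 CPM (100 to 108). Thbs4, a thrombospondin of tendon and muscle matrix, stood at 57.7 CPM (55.5 to 59.8) and 31.9 CPM (29.9 to 34). Each of these was well above its level in endothelial cells, which should lack the genes. There Scx was at 6.27 and 5.9 CPM, Tnmd at 12.9 and 6.04 CPM and Thbs4 at 12.4 and 2.32 CPM. Kera, the gene of the proteoglycan keratocan, was sparse at 6.43 CPM (5.74 to 7.18) and 3.93 CPM (3.25 to 4.72), but fibroblasts held 85.1% and 69.3% of all its UMIs in kept cells. Its intervals overlapped those of Schwann cells, at 5.18 CPM (2.37 to 9.83, 9 UMIs) and 0.751 CPM (0.019 to 4.19, 1 UMI).

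Fmod and C1qtnf3 were highest in cartilage. Fmod, which encodes fibromodulin, a binder of collagen fibrils, reached 165 CPM (160 to 171) and 140 CPM (135 to 145) in cartilage cells against 35 CPM (33.4 to 36.7) and 50.7 CPM (48.2 to 53.4) in fibroblasts. C1qtnf3 reached 599 CPM (589 to 608) and 581 CPM (571 to 591) in cartilage cells against 147 CPM (143 to 150) and 165 CPM (161 to 170) in fibroblasts. Cartilage cells held 58.6% and 49.3% of the Fmod UMIs and 52.9% and 56% of the C1qtnf3 UMIs. For both genes the largest pool of UMIs thus lay outside the fibroblasts. Within cartilage, Fmod was lower in cells with an Mki67 UMI (140 and 116 CPM) than in those without (178 and 149 CPM) in both libraries. C1qtnf3 was at 592 CPM in Mki67 cells against 602 CPM in the rest in the library labelled SRSF2f/f, with intervals that overlapped, and at 532 against 600 CPM in the other.

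Mkx, Thbs2 and Postn were shared with further types. Mkx had its highest value in bone cells, at 8.39 CPM (5.62 to 12.1, 29 UMIs) and 9.72 CPM (5.85 to 15.2, 19 UMIs). Its fibroblast levels of 5.94 CPM (5.27 to 6.66) and 6.29 CPM (5.42 to 7.27) had intervals that overlapped with those, so bone and fibroblasts were not separated for Mkx at this depth. Thbs2, a thrombospondin that restrains fibril growth, was at 117 CPM in fibroblasts and 112 CPM in bone cells of the library labelled SRSF2f/f, and at 109 and 113 CPM in the other, again with overlapping intervals. Of these bone cells 76.4% and 73% had at least 5 Col3a1 UMIs. In the remaining 47 and 31, Thbs2 was at 56.9 CPM (39.6 to 79.2) and 36.6 CPM (20.9 to 59.4). Those intervals, from an alternative added after the values were seen, lay below those of fibroblasts (114 to 120 and 105 to 113). Postn, the gene of periostin, was shared with Schwann cells. Its 694 CPM (686 to 701) in fibroblasts and 678 CPM (640 to 718) in Schwann cells overlapped in the library labelled SRSF2f/f, as did 468 CPM (460 to 476) and 482 CPM (445 to 520) in that labelled SRSF2f/w.

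**Figure D1:**
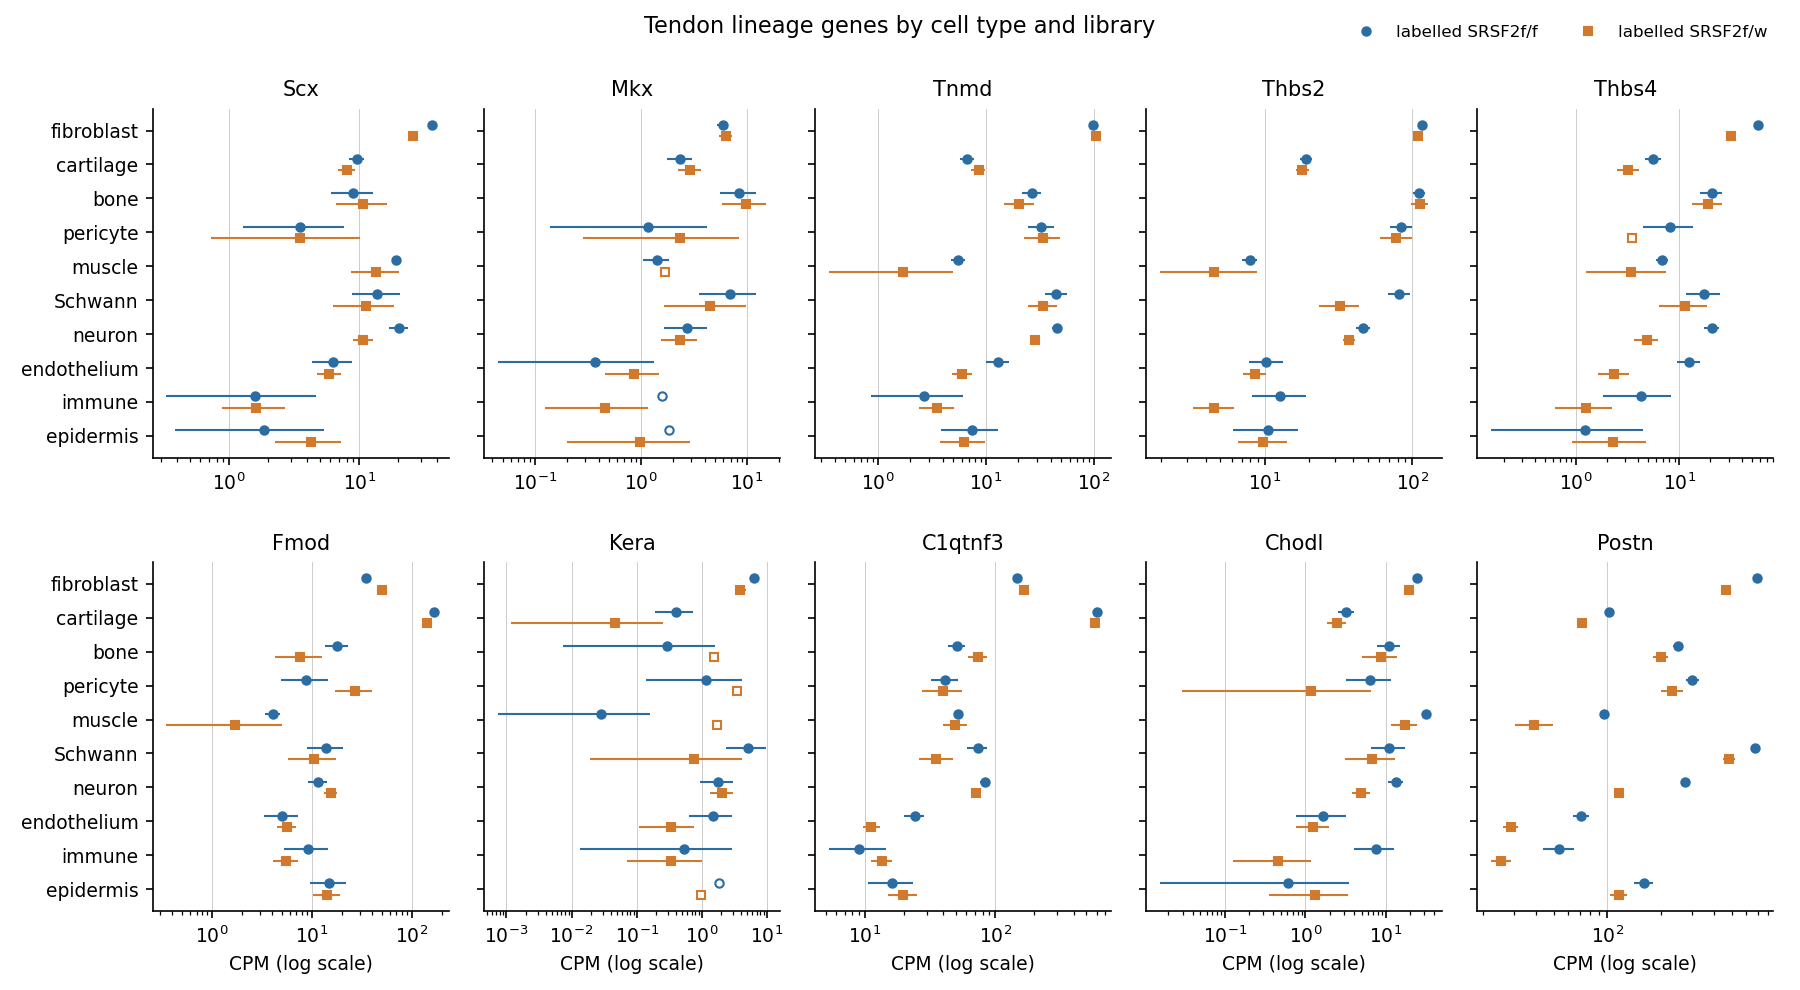
Levels of the 10 genes (CPM, log axis) in 10 cell types, 1 panel per gene, with circles for the library labelled SRSF2f/f, squares for that labelled SRSF2f/w and bars for exact 95% Poisson intervals. Open symbols stand at the floor of 3 UMIs where no UMI was counted. Fibroblasts lead for Scx, Tnmd, Thbs4 and Kera, and cartilage for Fmod (165 and 140 CPM) and C1qtnf3 (599 and 581 CPM). For Kera the intervals of fibroblasts and Schwann cells overlap.

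The neuron, Schwann and pericyte limits took in cells rich in Col3a1, so member levels there were recomputed over cells with under 5 Col3a1 UMIs, an alternative added after the values were seen. In the library labelled SRSF2f/f, Tnmd was then at 2.24 in place of 45.6 CPM in neurons and at 0 UMIs in place of 44.9 CPM in Schwann cells, where a count of 0 in the 92 cells left has an exact upper limit of 5.85 CPM. In the other library it was at 1.87 in place of 28.8 CPM in neurons and at 4.4 CPM (3 UMIs) in place of 33.8 CPM in Schwann cells. Pericytes did not share this drop, with Tnmd at 37.2 CPM (17.8 to 68.4, 10 UMIs in 33 cells) in place of 32.6 CPM in the library labelled SRSF2f/f and 25.1 CPM (9.2 to 54.6, 6 UMIs in 31 cells) in place of 33.8 CPM in the other. Postn behaved otherwise in Schwann cells. It was lower but still at 463 CPM (412 to 520) in place of 678 CPM in the library labelled SRSF2f/f. In that labelled SRSF2f/w it was at 308 CPM (268 to 352) in place of 482 CPM, while in neurons it was at 28.2 and 21.7 CPM. Postn UMIs in Schwann cells were thus not limited to those with at least 5 Col3a1 UMIs. Scx dropped less than Tnmd in neurons. It was at 12.8 in place of 20.1 CPM in the library labelled SRSF2f/f and 8.78 in place of 10.8 CPM in the other. Chodl in neurons was at 11.2 in place of 13.2 CPM and at 3.17 in place of 4.92 CPM. Thbs2 in Schwann cells was at 31.7 in place of 81.7 CPM and at 24.9 in place of 32.3 CPM.

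Muscle cells held Scx, C1qtnf3 and Chodl. In the library labelled SRSF2f/f, which had 2226 muscle cells, Scx was at 19.3 CPM (17.9 to 20.8), C1qtnf3 at 52.2 CPM (49.8 to 54.6) and Chodl at 31.7 CPM (29.9 to 33.7). The 109 muscle cells of the library labelled SRSF2f/w had 13.6 CPM of Scx (8.7 to 20.2), 49.2 CPM of C1qtnf3 (39.4 to 60.7) and 17 CPM of Chodl (11.4 to 24.2). Scx and C1qtnf3 were no lower in muscle cells with under 5 Col3a1 UMIs, at 20.9 and 59.5 CPM in the library labelled SRSF2f/f and 15.1 and 49.7 CPM in the other. For Scx in the library labelled SRSF2f/w, the interval of these muscle cells (9.54 to 22.6) overlapped that of such neurons (6.72 to 11.3). In the library labelled SRSF2f/f the intervals did not overlap (19 to 22.9 and 9.15 to 17.4). Chodl was lower in muscle cells with under 5 Col3a1 UMIs, at 20.2 CPM (18.3 to 22.2) and 14.4 CPM (9.02 to 21.8). Tnmd, at 5.56 and 1.7 CPM in muscle cells, and Kera, with 1 UMI and 0 UMIs, did not share this pattern.

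Within muscle the 3 genes divided by stage. Chodl was at 61.5 CPM (774 cells) in cells with Pax7, the factor of muscle progenitors, and no Myog, the factor of differentiating myocytes, and at 4.84 CPM (857 cells) in cells with Myog and no Pax7. A Chodl UMI was found in 47.2% of the progenitors and 5.13% of the myocytes of this library, labelled SRSF2f/f. Scx had the opposite order with 13.1 CPM in progenitors and 24.6 CPM in myocytes, as had C1qtnf3 with 31 and 77.3 CPM. Postn followed Chodl, at 144 and 50.7 CPM. In muscle cells of this library with under 5 Col3a1 UMIs, Postn was at 40.5 CPM in place of 96.3 CPM. The split by stage was not repeated in those cells. Tnmd (5.96 and 6.16 CPM), Thbs2 (7.49 and 8.21 CPM) and Fmod (4.19 and 5.09 CPM) had overlapping intervals in the 2 stages. Only 33 progenitors and 50 myocytes remained in the library labelled SRSF2f/w, where Chodl was at 33.8 and 10.1 CPM, C1qtnf3 at 15.9 and 76.8 CPM and Scx at 11.9 and 16.4 CPM, and the intervals overlapped for Chodl and Scx.

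**Figure D2:**
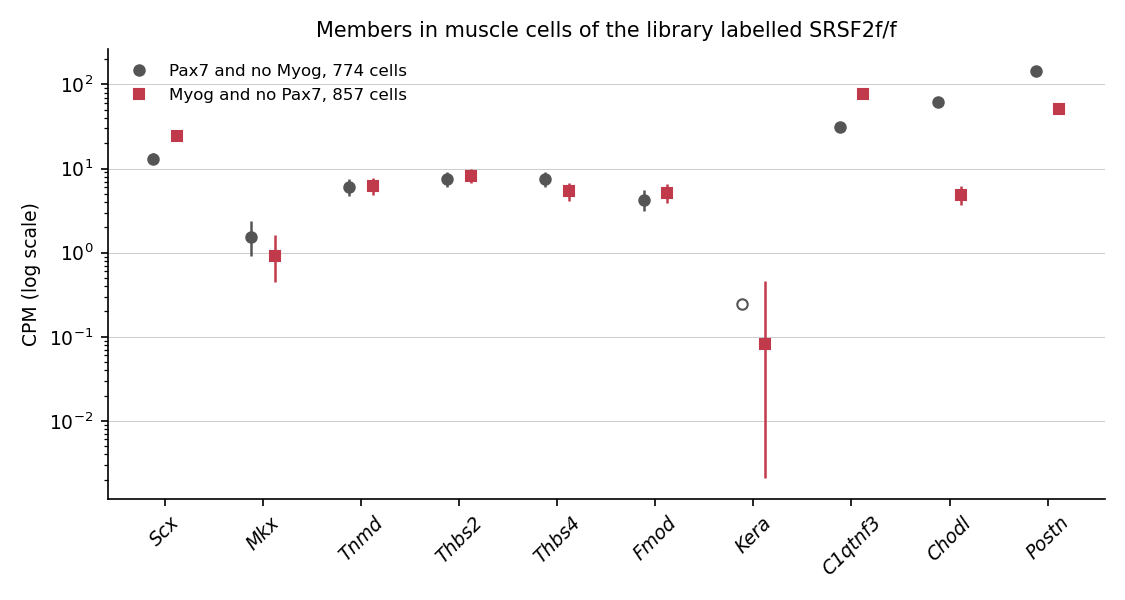
Levels (CPM, log axis) of the 10 genes in muscle cells of the library labelled SRSF2f/f, split into cells with Pax7 and no Myog (circles, 774 cells) and with Myog and no Pax7 (squares, 857 cells), with exact 95% Poisson intervals. Chodl is at 61.5 CPM in the former and 4.84 CPM in the latter, Scx and C1qtnf3 are higher in the latter, and the open symbol for Kera marks the floor of 3 UMIs.

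The libraries differed in fibroblasts for several members, on either side of 0. Of the 10, 6 had a ratio whose interval lay below 0 (Thbs4, Kera, Postn, Scx, Chodl and Thbs2) and 3 had one above 0 (Fmod, C1qtnf3 and Tnmd). Of the 14006 genes with at least 50 fibroblast UMIs, 29.8% had an interval below 0 and 19.2% one above 0. Intervals clear 0 more readily at high counts. Without regard to intervals, 6 of the 10 members and 8083 of the 14006 genes had a ratio below 0. Thbs4 had the lowest log2 ratio, -0.85 (-0.96 to -0.75) from 2826 and 933 UMIs, and 1.75% of those genes were lower still. Kera followed at -0.71 (-1.03 to -0.40), Postn at -0.57 (-0.60 to -0.54) and Scx at -0.49 (-0.62 to -0.37). All 4 were lower in the library labelled SRSF2f/w, the one with less Srsf2. Chodl was at -0.32 (-0.47 to -0.18) and Thbs2 at -0.10 (-0.16 to -0.04), and with a limit of 20 Col3a1 UMIs both intervals spanned 0, at -0.04 (-0.22 to 0.15) and -0.01 (-0.09 to 0.06). Thbs2 was at 0.02 (-0.03 to 0.07) when cells of other types were kept. Fmod was the highest at 0.53 (0.43 to 0.64), C1qtnf3 was at 0.17 (0.12 to 0.23) and Tnmd at 0.07 (0.005 to 0.14), while Mkx at 0.08 (-0.19 to 0.36) spanned 0. With each cell thinned to 5000 UMIs the direction turned for C1qtnf3, to -0.04 (-0.12 to 0.04), and for Tnmd, to -0.10 (-0.20 to -0.001).

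No member passed a 2-fold difference, where 1.06% of the 14006 genes lay lower and 1.36% higher in the library labelled SRSF2f/w. At the log2 limit of 0.58 used in the study, 2 members lay lower, Thbs4 and Kera, against 4.96% of all genes, and no member lay higher, against 4.76%. The study joined that limit to a p-value limit on single-cell values, and here it was applied alone to ratios of summed CPM. The median over the 10 members was a log2 ratio of -0.21, and that over all tested genes was -0.05. Col3a1, which set the fibroblast limit, was itself at 3275 CPM in the library labelled SRSF2f/f and 2627 CPM in the other, and with a limit of 20 Col3a1 UMIs the median of the members was -0.02. The part of Col3a1 in these ratios was not otherwise tested. The lower values of Postn and Thbs4 were not limited to fibroblasts. Postn was below 0 with an interval clear of 0 in all 10 types, from -0.32 in bone to -1.32 in endothelium, and Thbs4 was below 0 in cartilage at -0.80 (-1.23 to -0.37), in neurons at -2.08, in immune cells at -1.76 and in endothelium at -2.41 (-3.05 to -1.80). Its interval spanned 0 in bone (-0.12, -0.73 to 0.47), muscle, Schwann cells and epidermis (0.90, from 2 and 7 UMIs). Pericytes had 14 Thbs4 UMIs in the library labelled SRSF2f/f and 0 in the other. Over cells with under 5 Col3a1 UMIs, Thbs4 was still lower in cartilage (2.71 and 0.807 CPM) and endothelium (2.9 and 0.449 CPM). In such neurons Thbs4 was at 1.92 CPM (0.705 to 4.18) and 1.44 CPM (0.69 to 2.65). Such immune cells had 0 and 3 UMIs. Low counts of a gene in types that should lack it can be free RNA, and the part of free RNA in these ratios was not tested. The share of cells with at least 5 Col3a1 UMIs also differed by library, at 44.2% and 26.7% of neurons. Under that limit Postn was higher in the library labelled SRSF2f/w in bone (35.8 and 52.6 CPM) and pericytes (63.2 and 71 CPM), with overlapping intervals. Postn was lower in the other types with such cells, and its intervals overlapped in neurons and immune cells. The part of Col3a1-rich cells in these ratios was not tested. Fmod, above 0 in fibroblasts, went the other way in cartilage, its main cell type, at -0.24 (-0.31 to -0.17), and in bone at -1.20 (-2.12 to -0.37). It was above 0 in pericytes at 1.62 (0.62 to 2.66, from 15 and 23 UMIs) and in neurons at 0.42 (0.04 to 0.81). In the other types its interval spanned 0.

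Counts per cell showed 2 kinds of gene. Each cell was thinned to 5000 UMIs, leaving out shallower cells, which kept 4476 fibroblasts in the library labelled SRSF2f/f and 2627 in that labelled SRSF2f/w. Postn was then detected in 75% (73.7 to 76.2) and 59.5% (57.6 to 61.3) of fibroblasts and Thbs2 in 35.7% and 31.4%. Unthinned, these shares were 81.7% and 69% for Postn and 48.6% and 42.1% for Thbs2. Tnmd was detected in 15.1% of thinned fibroblasts in each library (19.1% and 20% unthinned), Scx in 11.6% and 9.52% (16.6% and 14.6%) and Kera in 1.97% and 1.37% (3.33% and 2.32%). The matching thinned shares of endothelial cells, whose median depths of 12443 and 15115 UMIs exceeded the 9206 and 9103 of fibroblasts, were 2.16% and 1.59% for Tnmd and 2.78% and 2.32% for Scx.

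Tnmd and Scx, like several other members, were concentrated in few cells. The 5% of fibroblasts with the most Tnmd held 69.1% and 66.3% of its UMIs, and single cells reached 57 and 50 UMIs. For Scx the top 5% held 61.9% and 62.6%, against 22.6% and 28.9% for Postn. Thbs4 (60.9% and 77.8%) and Chodl (72.3% and 78.9%) were in the range of Scx and Tnmd or above it. Mkx and Kera, the sparsest members, were at 95.1% to 100%. Their detection in 4.65% and 5.33% (Mkx) and 3.33% and 2.32% (Kera) of fibroblasts all but fixes that value, so it does not measure concentration. The lower level of Thbs4 in the library labelled SRSF2f/w went with fewer positive cells, 7.54% (6.56 to 8.61) of thinned fibroblasts against 14.3% (13.3 to 15.4), at 2.05 and 2.16 UMIs per positive cell. Postn differed in both respects, with 3.94 and 4.84 UMIs per positive cell. For Fmod 16.2% (14.8 to 17.6) against 12.1% (11.2 to 13.1) of cells were positive, at 1.58 and 1.61 UMIs.

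Fibroblasts with a UMI of Sox9, the cartilage factor that is also on in progenitors of the tendon insertion, had more Fmod and Scx. Fmod was at 45.3 CPM with Sox9 and 24.9 CPM without in the library labelled SRSF2f/f, and at 62.5 and 35.7 CPM in the other. Scx was at 43.2 and 30.4 CPM, and at 30.1 and 21 CPM. Thbs4 had the opposite order in both libraries, 53 against 62.2 CPM and 23.7 against 42.4 CPM. Depth was not matched in this split.

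Most pairs of members shared cells. Among Col3a1 cells, those with at least 5 Col3a1 UMIs whatever their type (7028 in the library labelled SRSF2f/f and 4078 in that labelled SRSF2f/w), pairs of members were counted after thinning to 5000 UMIs, which left 6687 and 3802 cells. Scx was found in 33.1% (29.9 to 36.4) of cells with Tnmd and 6.69% of cells without in the library labelled SRSF2f/f, a fold of 4.95. In that labelled SRSF2f/w the shares were 20.2% (16.8 to 24) and 6.92%, a fold of 2.92, so the share in Tnmd cells was lower there, with intervals that did not overlap, while that in cells without Tnmd was close. C1qtnf3 was in 59% (55.6 to 62.4) and 63.2% (58.8 to 67.5) of Tnmd cells, 2.95-fold the share of other cells in each library. Thbs4 was in 35.2% and 19.2% of Tnmd cells, with folds of 4.18 and 4.26. The folds for Thbs4 were thus close while its share was lower in the library labelled SRSF2f/w.

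Mkx and Kera, both sparse, went together. Of the 152 thinned cells with Mkx in the library labelled SRSF2f/f, 11 had Kera, 7.24% (3.67 to 12.6) and 5.31-fold the share of cells without Mkx. Of 93 in that labelled SRSF2f/w only 4 had it, 4.3% (1.18 to 10.6) against 1.11% of cells without Mkx, a fold of 3.89. The pairing was not particular to Mkx, since Kera was also 4.94-fold and 4.06-fold more frequent in Tnmd cells. Chodl and Thbs4 were another pair, with Chodl in 21.5% and 19.7% of Thbs4 cells, folds of 3.19 and 4.49. Fmod stood apart from both in these Col3a1 cells, which are of all types. The part of the type mix in this was not tested. Chodl was found in 8.78% of Fmod cells and 8.4% of cells without Fmod in the library labelled SRSF2f/f, and in 4.33% and 5.59% in the other. Thbs4 was in 13.6% against 11.4% and in 5.83% against 6.54%. Fmod did go with Scx, which was in 22.5% and 14.3% of Fmod cells, folds of 2.79 and 1.93.

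**Figure D3:**
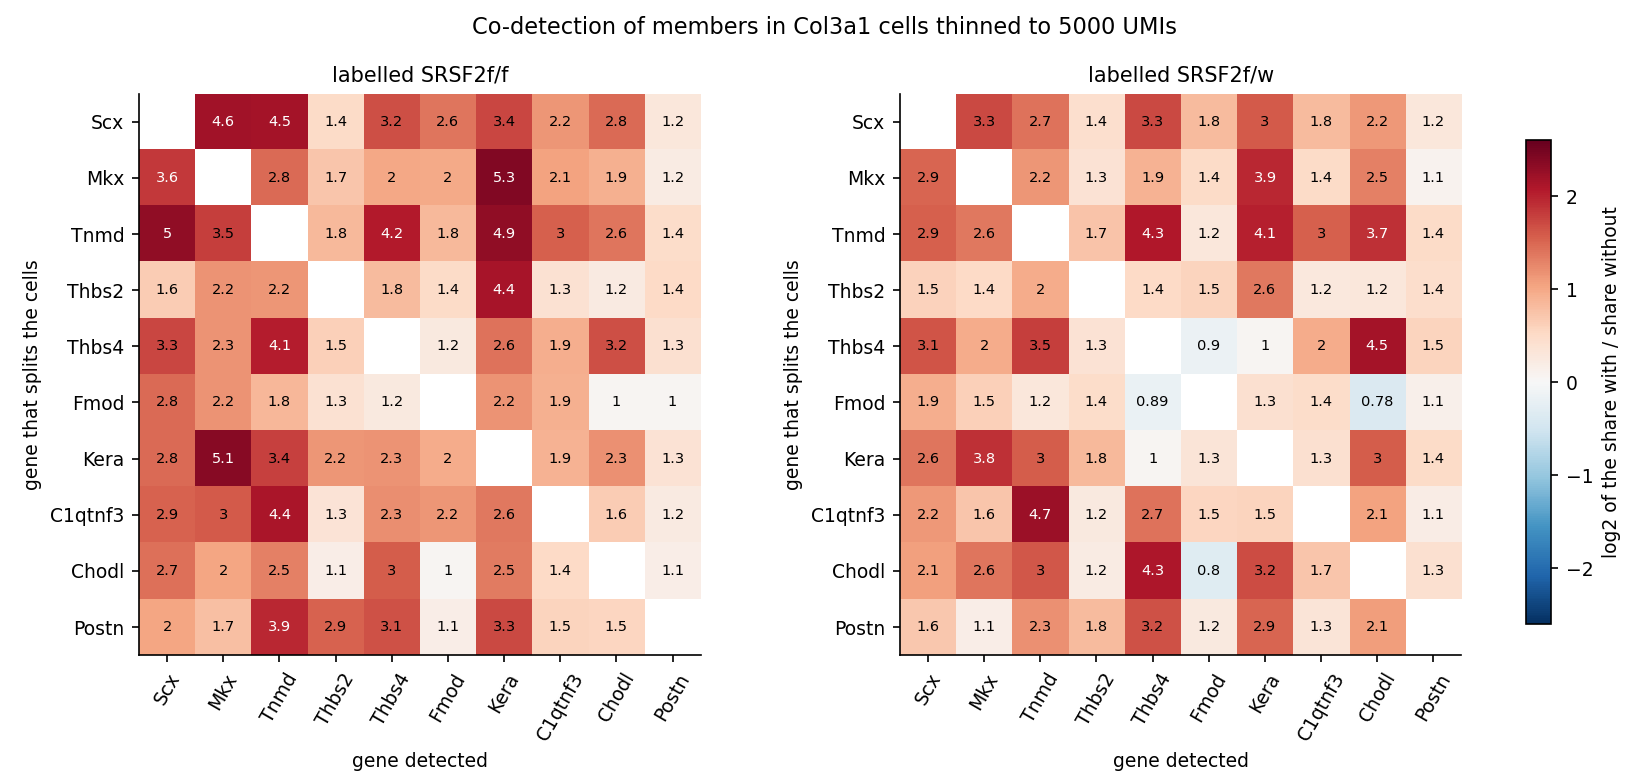
Co-detection of the 10 genes in Col3a1 cells thinned to 5000 UMIs, 1 panel per library. Each number is the share of cells with the gene on the horizontal axis among cells with the gene on the vertical axis, divided by that among cells without it, and colour gives its log2. Scx in Tnmd cells is 4.95-fold in the library labelled SRSF2f/f and 2.92-fold in the other, and the Fmod entries with Thbs4 and Chodl are near or below 1.

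A UMI of Scx and a UMI of Tnmd were found in the same cell in 491 of 7028 Col3a1 cells of the library labelled SRSF2f/f, 6.99% (6.4 to 7.61), and in 228 of 4078 of that labelled SRSF2f/w, 5.59% (4.91 to 6.34). After thinning the shares were 4.08% and 2.63%. Of these cells 20.8% and 30.3% also passed the limits of another type. Their median depth was 10113 and 12856 UMIs against 10820 and 10381 in the other Col3a1 cells, so they were the deeper ones in the library labelled SRSF2f/w alone.

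Cells with Scx and Tnmd were richer in every other member. Kera was at 26.1 CPM (22.3 to 30.4) in them and 2.36 CPM in the other Col3a1 cells of the library labelled SRSF2f/f, an 11.1-fold difference, and 7.03-fold higher in the other library. Thbs4 was 8.38-fold and 8.09-fold higher, Mkx 6.3-fold and 3.23-fold, C1qtnf3 4.54-fold and 4.48-fold and Chodl 3.81-fold and 4.82-fold. The broad matrix genes differed less, Postn by 2.18-fold and 1.88-fold and Thbs2 by 1.97-fold and 1.57-fold. Fmod was 2.06-fold higher in the library labelled SRSF2f/f and 1.34-fold in that labelled SRSF2f/w. The other Col3a1 cells are of any type, cartilage and muscle among them. Fmod was at 41.2 and 56.9 CPM in them, against 35 and 50.7 CPM in fibroblasts. The part of the type mix in these folds was not tested. The levels of Scx and Tnmd themselves were set by the choice of cells.

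**Figure D4:**
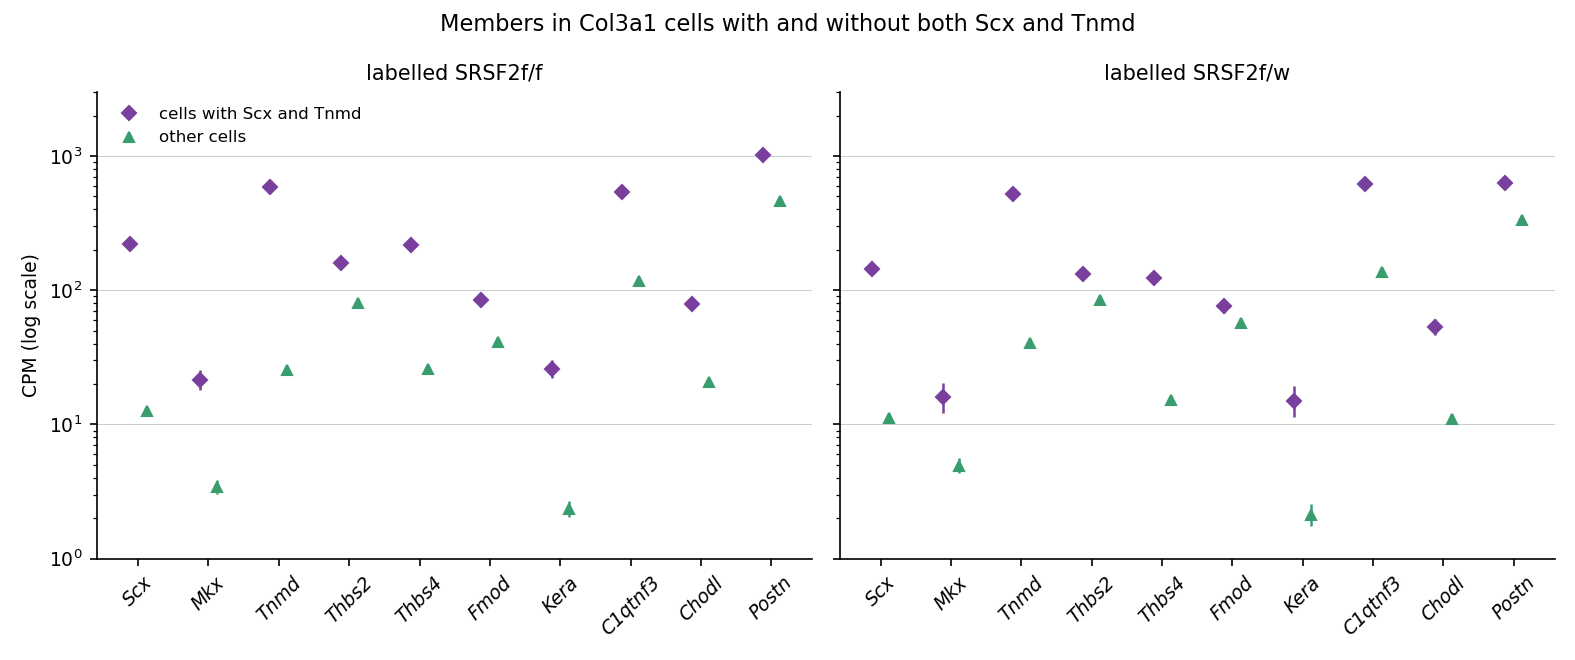
Levels (CPM, log axis) of the 10 genes in Col3a1 cells with both Scx and Tnmd (diamonds) and in the other Col3a1 cells (triangles), with exact 95% Poisson intervals, 1 panel per library. Thbs4, Kera, Mkx, C1qtnf3 and Chodl are 3.23 to 11.1 times higher in the former, and Fmod, Thbs2 and Postn 1.34 to 2.18 times. Scx and Tnmd chose the cells, and the other Col3a1 cells are of any type.

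Between libraries, the cells with Scx and Tnmd gave log2 ratios of -0.82 (-0.97 to -0.67) for Thbs4, -0.81 (-1.27 to -0.37) for Kera and -0.68 (-0.74 to -0.61) for Postn. The ratios of Scx, -0.63 (-0.78 to -0.49), and Tnmd are set in part by the choice of cells, which needs a UMI of each and took deeper cells in the library labelled SRSF2f/w. C1qtnf3 was the sole member above 0, at 0.20 (0.12 to 0.27). Fmod, above 0 in fibroblasts, was at -0.15 (-0.36 to 0.06) here and at 0.46 (0.39 to 0.54) in the other Col3a1 cells, so its higher level in the library labelled SRSF2f/w lay outside these cells. Tnmd was likewise at -0.17 (-0.25 to -0.09) inside and 0.66 (0.58 to 0.75) outside. A Tnmd cell with no Scx UMI counts as outside, and Scx itself was lower in that library, so the split moves with Scx. Chodl was at -0.57 (-0.81 to -0.33) inside and -0.91 (-1.05 to -0.77) outside. For every gene the outside set also holds Col3a1 cells that passed the limits of other types, muscle among them. The share of muscle cells with at least 5 Col3a1 UMIs was 34.5% in the library labelled SRSF2f/f and 11% in the other. In fibroblasts alone Tnmd was at 0.07 (0.005 to 0.14). The part of the type mix in the outside ratios was not tested.

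**Figure D5:**
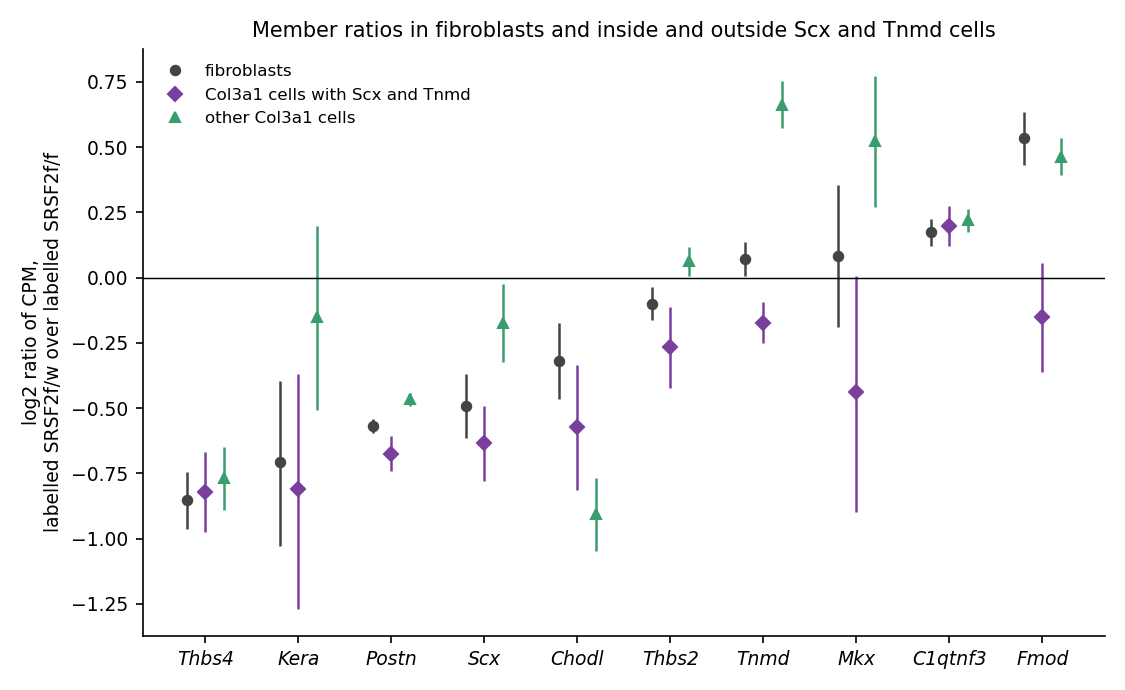
log2 ratio of CPM, labelled SRSF2f/w over labelled SRSF2f/f, for each gene in fibroblasts (circles), in Col3a1 cells with Scx and Tnmd (diamonds) and in the other Col3a1 cells (triangles), with exact 95% intervals of counting error. Thbs4 is near -0.8 in all 3 sets, while Fmod and Tnmd are above 0 outside the Scx and Tnmd cells and below 0 inside, where the Fmod interval spans 0.

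Over single Col3a1 cells, the genes whose log levels were most like Scx and Tnmd included other members, 4 of the 11 genes among the 15 nearest in both libraries for either gene. The members were chosen with earlier results of these data known, so their closeness is not independent support for the list. The measure is Pearson's r over 7028 cells of the library labelled SRSF2f/f and 4078 of the other, given as a description, since the cells share a library and differ in depth, and it was ranked over 12858 genes. Tnmd was nearest to Scx in both libraries (r = 0.46 and 0.33). Thbs4 (0.33 and 0.25) and C1qtnf3 (0.28 and 0.24) were members too, and Zfp185 (0.33 and 0.20), Mfap4 (0.24 and 0.21), a microfibril-associated glycoprotein, Aspn (0.23 and 0.19), the gene of asporin, Gas2 (0.26 and 0.19) and Mgp (0.27 and 0.19), the gene of matrix Gla protein, were not. For Tnmd the nearest were C1qtnf3 (0.44 and 0.52), Thbs4 (0.40 and 0.33), Scx and Zfp185 (0.39 and 0.30), then Fibin, Angptl1, Aspn and Mfap4 at 0.27 to 0.31 in both libraries. Fmod and Mkx were the members least like Tnmd, with r of 0.14 and 0.08 for Fmod and 0.19 and 0.11 for Mkx.

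Other genes of tendon biology lay on both sides of 0 in fibroblasts, and their counts stand beside 29.8% below and 19.2% above 0 for all genes. Of 14 matrix genes 6 had an interval below 0, 4 above and 4 spanning 0, with a median log2 ratio of -0.002 beside -0.05 for all genes. The fibrillar collagen genes Col1a2 and Col1a1 were at -0.09 and -0.10, and Dcn, the gene of decorin, was at -0.14. Of 8 further tendon and sheath genes 4 lay below 0, 2 above and 2 spanned 0, with a median of -0.17. P4ha1, a collagen prolyl hydroxylase subunit, was at 0.12, Loxl2, a collagen cross-linking enzyme, at -0.26 and Tppp3, a marker of the tendon sheath, at -0.84 (-0.94 to -0.73). Among 9 TGF-beta ligands, receptors and Smads the median was 0.08, with 1 below 0, 4 above and 4 spanning 0. Smad7, an inhibitor of the pathway, was at 0.30 and the ligand gene Tgfb2 at 0.13. Of 8 other regulators 2 lay below 0, 4 above and 2 spanned 0 (median 0.15), with Sox9 at 0.46 and the tendon transcription factor Egr1 at 0.19. None of these 4 lists had a member past 2-fold.

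Genes that mark the place of origin of mesenchyme had a median of 0.16 over the 11 of 12 tested, 3 below 0, 6 above and 2 spanning 0, beside the same 29.8% and 19.2% of all genes. Prrx1, of limb and lateral mesenchyme, was at 0.16, Twist2, of dermal mesenchyme, at -0.06 and Meox2, of somite derivatives, at -0.24. Foxd1 was at 1.09 (1.01 to 1.17) and the sole gene of the lists past 2-fold, higher in the library labelled SRSF2f/w. In the library labelled SRSF2f/f, cells with Scx and Tnmd had 94.6 CPM of Meox2 against 33.1 CPM in other Col3a1 cells (2.86-fold, and 1.86-fold in the other library). Twist2 was lower in them, at 0.193 and 0.368 times its level in the other Col3a1 cells. Meox1, picked after its values were seen, was 4.98-fold and 3.1-fold higher in these cells, and its fibroblast log2 ratio was -0.90 (-1.08 to -0.73). Of the matrix genes Dcn was lower in cells with Scx and Tnmd, at 0.732 and 0.645 times its level in the others, while Col1a1 was 1.28-fold higher in each library.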

How the data were processed

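The deposited values were counts, UMIs per gene and cell, for 32285 genes and 27766 barcodes. The authors had mapped reads to mm10 without introns and merged the libraries at like read depth, with Cell Ranger 5.0.0 per the file headers, while the submitters' processing notes list Cell Ranger 3.1.0, STAR and Seurat 3.1.1. Barcode suffixes were matched to samples by the number of cells in the run summaries. Cells within 2 SD of the mean log UMIs and log genes of their library and at most 10% mitochondrial UMIs were kept. The upper limit and the mixed class stood in for a doublet caller, which was not run. Type limits were summed UMIs: muscle (Pax7, Myf5, Myod1, Myog) 3, cartilage (Acan, Hapln1, Cnmd) 3 with 20 of Col2a1, bone (Sp7, Ibsp, Dmp1, Bglap) 3, neuron (Tubb3, Stmn2, Elavl3, Nefl) 5, Schwann (Sox10, Cdh19, Foxd3) 2, endothelium (Pecam1, Cdh5, Kdr, Emcn) 5, immune (Ptprc, Tyrobp, Laptm5, Fcer1g) 4, epidermis (Krt5, Krt14, Epcam) 5 and pericyte (Rgs5, Kcnj8, Abcc9, Notch3) 5. A further class was set aside by a limit of the same kind and is not reported here. Intervals were exact: Poisson for sums, Clopper-Pearson for shares and the split of counts for ratios. Of these the ratio interval alone was checked, on simulated independent Poisson counts, which is the model it assumes. That check cannot show how the interval behaves where UMIs are concentrated in few cells, as they were for most members. Named were all members, genes among the 15 most like Scx or Tnmd in both libraries (up to 8 each, at least 200 UMIs) and the genes with the most UMIs of each list. Members, lists and limits were chosen with earlier results of these data known. Coordinates came from GENCODE M21. Python 3.11.15, NumPy 2.4.6, SciPy 1.17.1, pandas 2.3.3 and matplotlib 3.10.9 were used.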

Additional observations from a re-analysis of the deposited data

How the results depend on the processing

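With 1 library per genotype no library could be left out, and no paired analysis was possible because each group held 1 sample. The median member log2 ratio of -0.21 moved to -0.023 with a Col3a1 limit of 20 UMIs and stayed within -0.24 to -0.17 under the other planned settings. The share of Col3a1 cells with Scx and Tnmd, 6.99% and 5.59%, became 8.38% and 6.91% with all UMI limits doubled, 9.55% and 8.83% with the Col3a1 limit of 20, and 4.08% and 2.63% after thinning. Without cells of other types the shares were 8.11% (7.35 to 8.91) and 5.5% (4.7 to 6.4), a wider gap. The fibroblast log2 ratios of Thbs4 (-1.004 to -0.736), Kera, Postn, Scx and Chodl stayed below 0 in all 8 settings tried, though Chodl reached -0.04 (-0.22 to 0.15) with the Col3a1 limit of 20 and -0.83 when cells of other types were kept. The Thbs2 interval spanned 0 with that limit and with all limits doubled, and that of Tnmd without haemoglobin, mitochondrial and ribosomal protein genes in the denominator. Mkx was at 0.270 (0.053 to 0.485) when cells of other types were kept. It was below 0, with intervals that spanned 0, with all limits doubled (-0.035), after thinning (-0.079) and in cells with Scx and Tnmd alone (-0.439). Thbs2 turned to 0.022 (-0.03 to 0.07) when cells of other types were kept, and C1qtnf3 to -0.037 (-0.12 to 0.04) and Tnmd to -0.10 (-0.20 to -0.001) after thinning. In cells with Scx and Tnmd alone, an alternative chosen after seeing the data, Tnmd was at -0.17 and Fmod at -0.15. With all UMI limits doubled, 7 of 20 fibroblast levels left their counting interval, at 0.909 to 1.1 times the reported level. The cause was not tested for any of these changes.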

Other observations

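Further genes of the tendon lists were higher in Col3a1 cells with both Scx and Tnmd than in the other Col3a1 cells, and those named here were chosen after their values were seen. Htra3, a secreted protease, was at 51.4 CPM against 14.4 CPM in the library labelled SRSF2f/f (3.56-fold) and 2.2-fold higher in that labelled SRSF2f/w. Etv4, an ETS factor that responds to FGF, was 4.41-fold and 2.61-fold higher, the latter from 25 UMIs in those cells. Among TGF-beta ligands, Tgfb3 was 2.29-fold and 2.04-fold higher and Tgfb2 1.84-fold and 1.55-fold, while Tgfb1 was at 0.72 and 0.945 times its level in the others. The collagen genes Col12a1 (1.98-fold and 1.55-fold) and Col14a1 (1.95-fold and 1.79-fold), which coat fibrils, were also higher in them.

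Osr1, a marker of muscle connective tissue, was lower in cells with Scx and Tnmd, at 0.428 and 0.509 times its level in the other Col3a1 cells, as was Lum, the gene of lumican, at 0.516 and 0.636 times. Comp, a cartilage and tendon matrix gene, differed in direction between the libraries. It was at 0.403 times in that labelled SRSF2f/f and 1.33 times in that labelled SRSF2f/w. In fibroblasts alone it was at 10.65 and 10.98 CPM, against 45.16 and 62.08 CPM in the other Col3a1 cells, which are of any type. Of the cells with Scx and Tnmd, 20.8% and 30.3% also passed the limits of another type. The part of the type mix in this difference was not tested.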
